A study of Mus musculus with 6 samples.

Results

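T cells in regenerating mouse quadriceps were followed as 217 single-cell barcodes among 53717 kept barcodes from 6 muscles. Kept barcodes had 300 or more genes with a UMI (unique molecular identifier, standing for 1 captured transcript) and no more than 15% of UMIs from mitochondrial genes. T barcodes were chosen by detected transcripts: a barcode was taken when at least 2 of Cd3e, Cd3d, Cd3g, Trac, Trbc2 and Lck were detected, at least 1 of them a CD3 gene, and when the macrophage genes Csf1r and Adgre1, the neutrophil gene Csf3r and the fibroblast gene Pdgfra were all at 0. The values of these genes chose the barcodes, so their levels are a description and not a result.

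All mice carried Cdh5-CreERT2:R26R-tdTomato, a recombinase driven by an endothelial promoter and switched on by tamoxifen, with a red reporter; T cells are not the cells this promoter marks. In the CLL group, 3 mice received clodronate liposomes, which partly ablate circulating monocytes. In the SHAM group, 3 mice received liposomes with phosphate-buffered saline. Liposomes were injected into a vein 1 day before and 2 days after cardiotoxin damage to the quadriceps, and muscles were taken 5 days after the damage; each library came from its own mouse, per the labels.

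T cells recognise antigen through a receptor made of alpha and beta chains or of gamma and delta chains, and both kinds signal through the CD3 chains. Gamma-delta T cells that make interleukin-17A live in barrier tissues and connective tissue and respond to interleukin-23 and interleukin-1 without prior priming. In injured muscle of the mouse, CD8 T cells, Foxp3 regulatory T cells and gamma-delta T cells have each been described, with regulatory T cells known for supporting muscle stem cells through amphiregulin, the product of Areg.

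The CD3 genes that anchor the choice lie side by side on chromosome 9 of GRCm38: Cd3g at chr9:44969572-44980431 on the minus strand, Cd3d at chr9:44981786-44987339 on the plus strand and Cd3e at chr9:44998740-45009627 on the minus strand, all protein-coding. Their start regions are shown because the rule rests on their joint detection, and the start region of Il17a (chr1:20730905-20734496, plus strand) because Il17a was the cytokine gene ranked highest among the genes that set T barcodes apart. Each run is 300 bases from RefSeq on GRCm38.p6, 250 before and 50 after the start, written 5′ to 3′ on the gene's strand; all 4 genes asked for were found. Capitals mark 3 motifs on either strand: AGGAAG, which holds the core that ETS factors bind, then AGGTCA, the core of ROR factors, and lastly TGTGGT, the core of RUNX factors.
Cd3g, chr9:44980382-44980681, minus strand: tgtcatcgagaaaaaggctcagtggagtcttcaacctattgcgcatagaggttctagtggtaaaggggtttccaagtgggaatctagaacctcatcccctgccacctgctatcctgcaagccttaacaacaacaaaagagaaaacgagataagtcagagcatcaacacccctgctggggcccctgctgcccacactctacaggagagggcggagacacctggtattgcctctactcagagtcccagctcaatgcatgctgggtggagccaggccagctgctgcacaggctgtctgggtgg
Cd3d, chr9:44981536-44981835, plus strand: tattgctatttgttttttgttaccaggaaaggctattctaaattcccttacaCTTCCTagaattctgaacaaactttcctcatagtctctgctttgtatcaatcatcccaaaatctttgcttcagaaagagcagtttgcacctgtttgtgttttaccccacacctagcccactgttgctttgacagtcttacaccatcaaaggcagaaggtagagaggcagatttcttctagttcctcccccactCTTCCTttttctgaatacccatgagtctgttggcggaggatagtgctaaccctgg
Cd3e, chr9:45009562-45009861, minus strand: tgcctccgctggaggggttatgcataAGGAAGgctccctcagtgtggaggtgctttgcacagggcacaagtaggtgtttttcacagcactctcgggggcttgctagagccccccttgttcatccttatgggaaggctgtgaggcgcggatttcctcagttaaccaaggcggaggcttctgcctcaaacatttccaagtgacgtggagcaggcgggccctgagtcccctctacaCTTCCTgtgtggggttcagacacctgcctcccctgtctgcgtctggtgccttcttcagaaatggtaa
Il17a, chr1:20730655-20730954, plus strand: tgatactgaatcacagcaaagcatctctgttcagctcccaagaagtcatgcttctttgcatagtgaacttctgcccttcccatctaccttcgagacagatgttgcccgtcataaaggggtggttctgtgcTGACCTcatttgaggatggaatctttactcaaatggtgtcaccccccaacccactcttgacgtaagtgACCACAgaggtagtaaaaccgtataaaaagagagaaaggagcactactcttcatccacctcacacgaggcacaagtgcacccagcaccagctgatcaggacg
AGGAAG was found 2 times in the Cd3d window and 2 times in the Cd3e window, and 0 times in those of Cd3g and Il17a. The ROR and RUNX motifs were each found 1 time in the Il17a window and 0 times in the CD3 windows. No 2 marked motifs overlap. These letters are common: of 32851 promoters of the same length, 35.4% hold AGGAAG, 16.3% hold AGGTCA and 16.8% hold TGTGGT. A match describes the letters and is not a measured binding site.

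The chosen barcodes carried the T cell programme beyond the genes that chose them. Cd3g was detected in 176 of 217 barcodes, Cd3d in 162, Trbc2 in 157, Cd3e in 143, Trac in 101 and Lck in 62. Among genes the rule did not use, those with the largest excess over the other kept barcodes included Trdc at 460 CPM (UMI counts scaled to a common total) against 1.16 CPM, Il17a at 326 against 0.441 CPM, Icos at 240 against 0.538 CPM and Lat at 219 against 0.794 CPM. Icos is a co-stimulatory receptor, and Lat carries the signal of the T cell receptor. The marker list of the T cell label is the same 6 genes as the rule, so it is no check of its own; the check rests on the receptor, co-stimulation and signalling genes above, which go with the label.

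Transcripts of other cell types ranged from none to levels above those of the rule genes, which summed to 2301 CPM in T barcodes. The fibroblast list, with Pdgfra at 0 by the rule, summed to 8698 CPM and the dendritic list to 3552 CPM over all T barcodes. Of the B cell list, 6 of 11 genes were at 0, among them Cd79a and Pax5. The neutrophil list had 6 of 12 genes at 0, among them Csf3r, which the rule sets to 0. It summed to 3.85 to 53.8 CPM in CLL and 0 to 23.6 CPM in SHAM. The NK list had UMIs of all 12 genes, with sums of 535 to 1248 CPM in CLL and 501 to 1960 CPM in SHAM. Col1a1, a collagen gene of fibroblasts, had UMIs in 207 of the 217 T barcodes (95.4%), against 97.5% of macrophage barcodes and 97.2% of NK barcodes. The source of these UMIs was not tested. The reporter transcript, Tomato, was found in 45.2% of T barcodes, 47.2% of NK, 38.7% of macrophage and 41.6% of fibroblast barcodes.

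Depth differed widely and touches every count that follows. Library totals ran from 58625420 to 75130565 UMIs in CLL and from 23873416 to 94841003 UMIs in SHAM. The median T barcode held 5454.5 and 3935 UMIs in CLL replicates 1 and 3, against 1460, 5650.5 and 7309 UMIs in SHAM replicates 1, 2 and 3. Of all 217 T barcodes, 55 sat just inside the rule with exactly 2 of its genes, 8 in CLL and 47 in SHAM, at a median of 1341 UMIs; 42 of these were in SHAM replicate 1. Just outside, 58 barcodes had 1 CD3 gene and no other rule gene, and 64 had enough T genes but also a UMI of an excluded gene, 47 of those in SHAM replicate 1. SHAM replicate 1 also stood apart in transcripts of other cells: the fibroblast list summed to 7135 and 9075 CPM in CLL replicates 1 and 3, against 21106, 2891 and 3283 CPM in SHAM replicates 1, 2 and 3, and the endothelial list to 64.6 and 38.5 CPM in CLL, against 1376, 36.1 and 24.3 CPM in SHAM. A total of 286 barcode sequences were kept in more than 1 library, 3 of them T barcodes, and 0 were T barcodes in both.

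T cells were rare in every muscle, and their share did not separate the groups. In CLL, replicate 1 held 28 T barcodes (0.763% of its kept barcodes), replicate 2 held 0 and replicate 3 held 43 (0.719%). In SHAM, replicate 1 held 90 (0.372%), replicate 2 held 44 (2.34%) and replicate 3 held 12 (0.183%). The group ranges overlap, and the largest and smallest shares above 0 are both in SHAM. The mean was 0.494 ± 0.428% in CLL and 0.966 ± 1.20% in SHAM (SD, n = 3 each), a difference of -0.472 percentage points with a two-sided exact permutation p of 0.80, where 0.10 is the smallest p that 3 against 3 libraries allow. Without SHAM replicate 2 the sign turned, to 0.217 points.

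**Figure D1:**
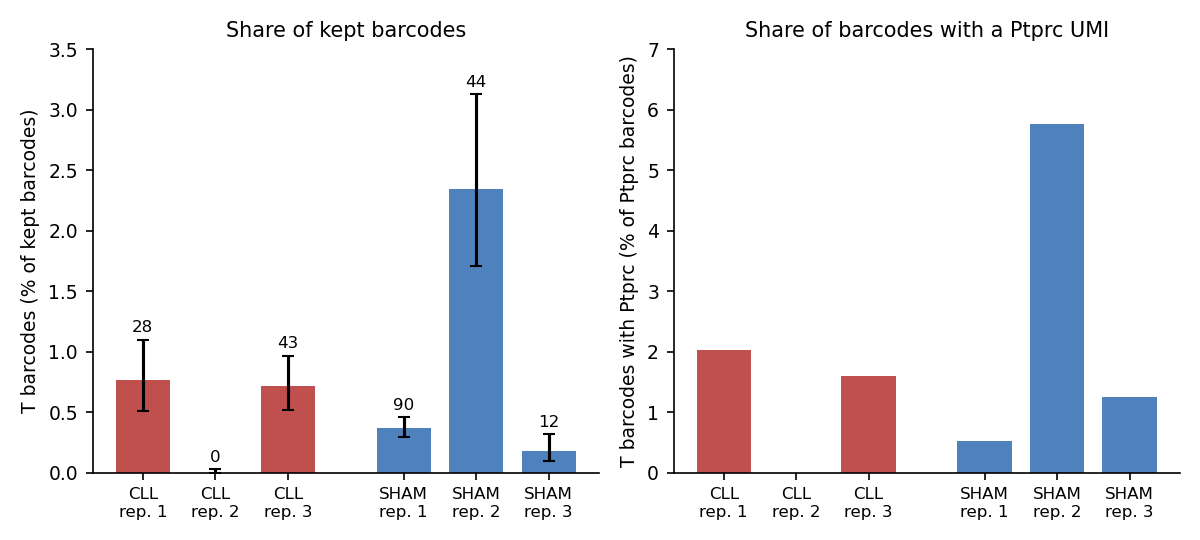
T barcodes by library, as a percentage of kept barcodes (left, with exact 95% Clopper-Pearson intervals that cover counting error only and the number of T barcodes above each bar) and, for T barcodes with a Ptprc UMI, as a percentage of all kept barcodes with a Ptprc UMI (right). SHAM replicate 2 stands highest in both panels at 2.34% and 5.77%, and CLL replicate 2 has no T barcode.

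CLL replicate 2 held no T barcode although it kept 11435 barcodes. A count of 0 allows a share of up to 0.0262% (3 counts), while the exact 95% intervals of CLL replicates 1 and 3 begin at 0.507% and 0.521%. It held 703 barcodes with a UMI of Ptprc, the common leukocyte antigen, and 347 macrophage barcodes (Csf1r and Adgre1 detected). Across all its deposited barcodes there was 1 Cd3d UMI and 0 of Cd3e, Cd3g, Il17a and Tcrg-C1. Dropping the 4 exclusion genes still gave 0 T barcodes there. The sums of expression below therefore rest on 2 CLL and 3 SHAM libraries.

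Among leukocytes SHAM replicate 2 was again the highest and CLL replicate 2 the lowest, while SHAM replicates 1 and 3 changed places. T barcodes with a Ptprc UMI were 2.02%, 0% and 1.60% of Ptprc barcodes in CLL replicates 1, 2 and 3, and 0.518%, 5.77% and 1.26% in SHAM replicates 1, 2 and 3. After every barcode was thinned to 1000 UMIs, T barcodes made up 0.471%, 0% and 0.513% for CLL, against 0.221%, 1.88% and 0.344% for SHAM. SHAM replicate 3 stayed above SHAM replicate 1 after thinning, and CLL replicates 1 and 3 changed places as well. The groups overlap on both scales.

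The most frequent single cytokine transcript in T barcodes, of the 2 gated here, was Il17a, the gene of interleukin-17A. An Il17a UMI was found in 63 of 217 T barcodes (29.0%), against 0 of 142 NK barcodes, which allows a share of up to 2.56% by the exact interval, 0.08% of 5267 macrophage barcodes and 0.03% of 7599 fibroblast barcodes. Median depth was 3823 UMIs in T, 3484 in NK, 5244 in macrophage and 9139 in fibroblast barcodes. By library, Il17a marked 10 of 28 and 14 of 43 T barcodes in CLL replicates 1 and 3, and 22 of 90, 12 of 44 and 5 of 12 in SHAM replicates 1, 2 and 3. The summed level of Il17a was 301 and 223 CPM in CLL, against 400, 410 and 243 CPM in SHAM, with overlapping groups. Of all Il17a UMIs in kept barcodes, 354 (70.2%) lay in T barcodes; in SHAM replicate 1, where 47 barcodes with enough T genes were left out for an excluded gene, the share was 41.1%.

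Il17a went with transcripts of gamma-delta T cells. The constant segments Trdc, Tcrg-C1, Tcrg-C2 and their kin mark the gamma-delta receptor, and 62 T barcodes (28.6%) had a UMI of Trdc or of a Tcrg-C segment. Both Il17a and a gamma-delta constant segment were found in 39 barcodes. In CLL replicates 1 and 3, Il17a was found in 87.5% and 50% of gamma-delta barcodes, against 15% and 22.2% of the other T barcodes. In SHAM replicates 1, 2 and 3 it was found in 52.6%, 73.3% and 75% of gamma-delta barcodes, against 16.9%, 3.45% and 25% of the others. The order was the same in all 5 libraries. Trdc alone is not specific to T cells, since 11.3% of NK barcodes had it, but Tcrg-C1 was found in 34 T barcodes and 0 NK barcodes. Alpha-chain and beta-chain constant segments were read in gamma-delta barcodes too. Trbc2 was in 69.4% of them against 73.5% of the other T barcodes, Trac in 30.6% against 52.9% and Trbc1 in 40.3% against 34.8%. Of the 63 Il17a barcodes, 51 had Trbc2 and 26 had Trac. Trbc2 and Trac are rule genes, so the choice of barcodes bears on their shares. Which receptor a barcode used was not tested.

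Variable segments of the receptor were shared within this set. Trdv4, a variable segment of the delta chain, was found in 34 T barcodes, 31 of them in the gamma-delta gate and 25 of them with Il17a. Tcrg-V6, a variable segment of the gamma chain, was found in 8 T barcodes, and all 8 had Il17a. Trgv2 was found in 7, of which 6 had Il17a. With 3' tags a variable segment is read seldom, so these counts are a floor and not the full use of a segment.

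Further transcripts of interleukin-17 producing gamma-delta cells were found with Il17a. Cd163l1, a scavenger receptor known from such cells in the mouse, was in 44.4% of Il17a barcodes and 5.84% of the other T barcodes, and 36 of its 37 T barcodes were in the gamma-delta gate. Blk, a SRC-family kinase, was in 41.3% against 5.84%, and Cxcr6, a chemokine receptor of tissue T cells, in 63.5% against 22.7%. Il7r, the interleukin-7 receptor, was in 71.4% against 31.8%, and Il1r1, the interleukin-1 receptor, in 36.5% against 7.79%. Il23r, the interleukin-23 receptor, was in 17.5% against 1.95%, and Ccr6 in 12.7% against 1.30%. Apart from Il23r and Ccr6, which are read in few barcodes, each of these was the more frequent with Il17a in all 5 libraries. Median depth was 4303 UMIs with Il17a and 3485.5 UMIs without.

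Other transcripts were read less often with Il17a. Ifng, Foxp3, Cd8a, Cd8b1, Gzma, Fasl and Xcl1 were each found in 0 of the 63 Il17a barcodes, and Cd4 in 1. Among the 154 T barcodes without Il17a, Ifng was in 44, Foxp3 in 11, Cd8a in 14 and Cd8b1 in 24. Gzma was in 15 of them, Fasl in 23, Xcl1 in 24 and Cd4 in 17. Several of these genes were read in few T barcodes, so a count of 0 or 1 does not show that a transcript was absent. Cd28, a co-stimulatory receptor, was in 9.52% of Il17a barcodes against 37.0% of the others, Cd2 in 11.1% against 42.9%, and Nkg7, a granule protein, in 4.76% against 47.4%. Each of these 3 was the less frequent with Il17a in all 5 libraries. Rora, a nuclear receptor gene, was read in 153 T barcodes, in 87.3% of Il17a barcodes against 63.6% of the others. It was not particular to Il17a barcodes. Rora was in 90.9% of Foxp3 barcodes and 94.1% of those in the CD4 gate below, but in 52.3% of Ifng barcodes. These shares compare barcodes of the same libraries and carry no test.

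**Figure D2:**
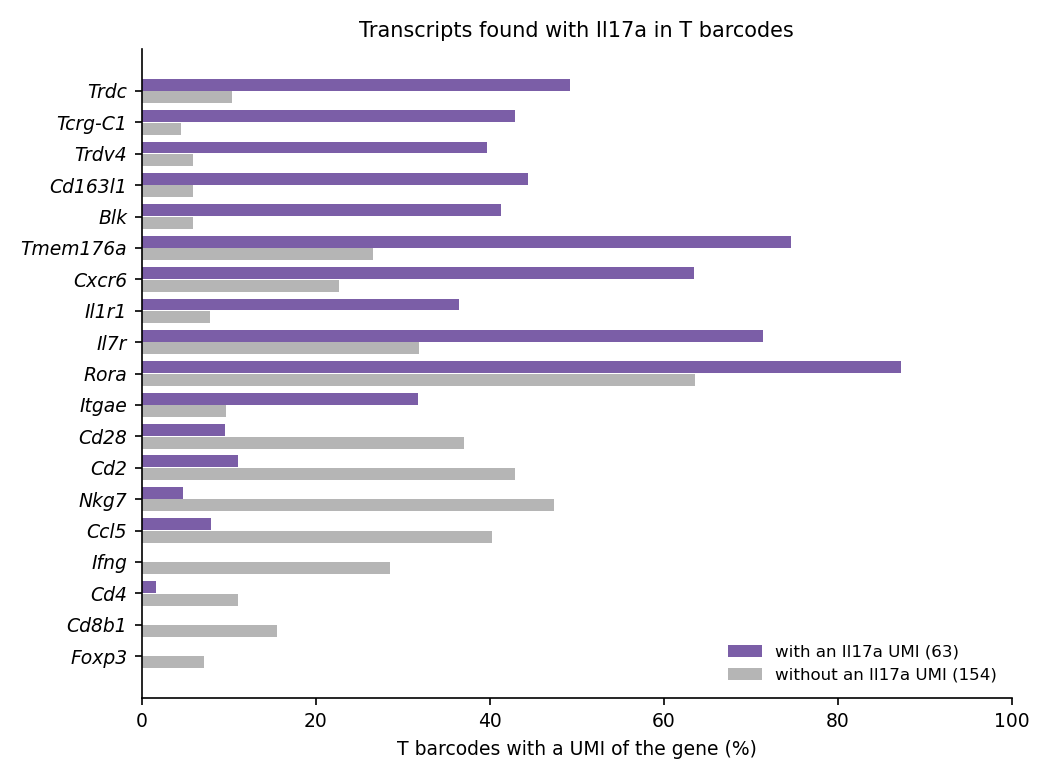
Share of T barcodes with at least 1 UMI of each gene (percent, horizontal axis), for the 63 T barcodes with Il17a (upper bar, purple) and the 154 without (lower bar, grey), over all libraries. Gamma-delta receptor segments, Cd163l1 and Blk are read mainly with Il17a, and Nkg7, Ccl5, Ifng, Cd8b1 and Foxp3 mainly without it.

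A second kind of T barcode carried Ifng, the gene of interferon-gamma, often with genes of cytotoxic cells. Ifng was read in 44 T barcodes (20.3%), against 41.5% of NK barcodes, which also make it, and 0.11% of macrophage barcodes. By library it marked 7 of 28 and 4 of 43 T barcodes in CLL replicates 1 and 3, and 12 of 90, 17 of 44 and 4 of 12 in SHAM replicates 1, 2 and 3. Among Ifng barcodes, Nkg7 was read in 81.8%, the chemokine gene Ccl5 in 75%, Ctsw in 70.5%, Klrd1 in 52.3% and the granzyme gene Gzma in 29.5%. Over all T barcodes these shares were 35.0%, 30.9%, 25.8%, 19.4% and 6.91%. Gzmb was in 27.3% against 14.7%, Prf1 in 18.2% against 4.15% and Gzmk in 4.55% against 2.30%. Ifng barcodes had a median of 6005 UMIs, against 3823 UMIs for all T barcodes. Of the 44, 15 passed the CD8 gate, 7 the CD4 gate and 7 had a gamma-delta constant segment.

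Ifng was unevenly spread over barcodes. Its summed level was 64.6 and 26.9 CPM in CLL, against 118, 810 and 105 CPM in SHAM, and the groups do not overlap. In SHAM replicate 2, 149 of the 247 Ifng UMIs came from 1 barcode. The log2 fold of CLL over SHAM was -3.02 ± 1.06 (SE), with an adjusted p of 0.997 in edgeR's quasi-likelihood test. It was -1.30 without SHAM replicate 2. With no filter on low counts the fold was -3.02 and the edgeR adjusted p was 1.56e-05.

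CD8 T cells, gated as a UMI of Cd8a or Cd8b1 and none of Cd4, were 29 of 217 T barcodes (13.4%). The same gate held 0 of 142 NK barcodes and 0.17% of macrophage barcodes. It held 25% and 6.98% of T barcodes in CLL replicates 1 and 3, and 11.1%, 15.9% and 16.7% in SHAM replicates 1, 2 and 3. Nkg7 was read in 25 of the 29, Ccl5 in 23 and Ctsw in 20. Of the 201 Cd8a UMIs in kept barcodes, 29 (14.4%) lay in T barcodes.

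CD4 T cells could not be counted from Cd4. The CD4 gate, a Cd4 UMI with none of Cd8a or Cd8b1, held 17 T barcodes (7.83%), which is below the 9.74% of macrophage barcodes that passed the same gate at a greater median depth. Only 1.33% of the Cd4 UMIs in kept barcodes lay in T barcodes. A total of 112 T barcodes (51.6%) had no UMI of Cd4, Cd8a, Cd8b1 or a gamma-delta constant segment, at a median of 2650 UMIs.

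Regulatory T cells were few among T barcodes. Foxp3, their defining factor, was read in 11 T barcodes (5.07%), against 0 NK barcodes and 0.02% of macrophage barcodes. Of the 49 Foxp3 UMIs in kept barcodes, 18 (36.7%) lay in T barcodes, so these counts can miss regulatory cells. Foxp3 was read in 3 of 28 and 4 of 43 T barcodes in CLL replicates 1 and 3 (10.7% and 9.30%), and in 2 of 90, 1 of 44 and 1 of 12 in SHAM replicates 1, 2 and 3 (2.22%, 2.27% and 8.33%). The groups do not overlap on this share. Areg was read in 8 of the 11 Foxp3 barcodes, Tnfrsf4 in 10, Ctla4 in 9, Tnfrsf9 in 8 and Il1rl1, the interleukin-33 receptor, in 6. Tnfrsf4, Tnfrsf9 and Ctla4 are surface receptors of activated and regulatory T cells. Klrg1 was read in 6, and Ifng and Il17a in 0.

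Cycling T barcodes, with UMIs of at least 2 of 8 mitosis genes, were 18 of 217 (8.29%), against 19.7% of NK and 12.5% of macrophage barcodes. These shares were not matched for depth. After the same thinning as above they were 4.06% of T, 11.7% of NK and 3.24% of macrophage barcodes, so T barcodes no longer lay below macrophage barcodes. Of the 28 cycling NK barcodes before thinning, 26 were in SHAM replicate 1. Cycling T barcodes were 3 of 28 and 4 of 43 in CLL replicates 1 and 3, and 6 of 90, 5 of 44 and 0 of 12 in SHAM replicates 1, 2 and 3. For 0 of 12, the exact 95% interval reaches 26.5%, which takes in the shares of the other libraries.

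None of 8 subset shares passed a test between the groups. Foxp3 averaged 10.0 ± 0.998% of T barcodes in CLL and 4.28 ± 3.51% in SHAM, with an exact permutation p of 0.20 that is also the smallest p that 2 against 3 libraries allow. The Il17a share averaged 34.1 ± 2.23% in CLL and 31.1 ± 9.24% in SHAM (exact permutation p = 0.80). The Ifng share averaged 17.2 ± 11.1% in CLL and 28.4 ± 13.3% in SHAM (exact permutation p = 0.40). The CD8 share averaged 16.0 ± 12.7% in CLL and 14.6 ± 3.01% in SHAM, and the share with a gamma-delta constant segment averaged 32.9 ± 6.11% in CLL and 29.5 ± 7.29% in SHAM. The cycling share averaged 10.0 ± 0.998% in CLL and 6.01 ± 5.71% in SHAM. All 8 two-sided permutation p-values were 1 after Benjamini-Hochberg adjustment, and SDs are over 2 CLL and 3 SHAM libraries.

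**Figure D3:**
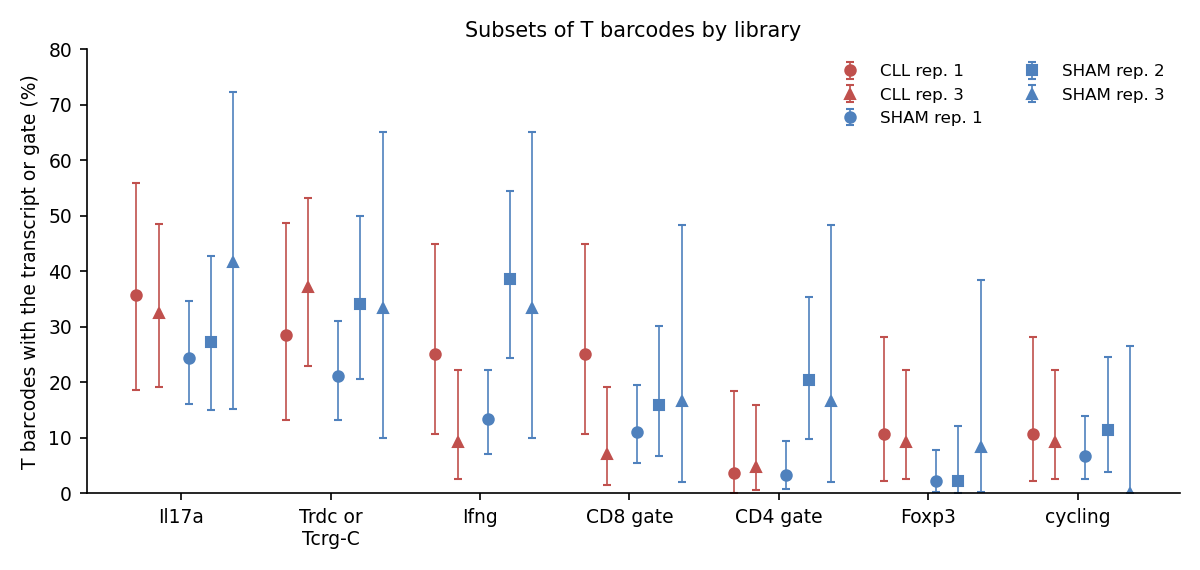
Share of T barcodes of each library (percent, vertical axis) with a UMI of Il17a, of Trdc or a Tcrg-C segment, of Ifng or of Foxp3, or passing the CD8, CD4 or cycling gate, with exact 95% Clopper-Pearson intervals (counting error only). CLL libraries are red and SHAM libraries blue; the Foxp3 shares of 10.7% and 9.30% in CLL lie above those in SHAM, the highest of which is 8.33%, and in every other column the groups overlap.

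Expression was then compared on UMIs summed over the T barcodes of each library, which held 185853 and 259837 UMIs in CLL replicates 1 and 3 and 212259, 305108 and 123664 UMIs in SHAM replicates 1, 2 and 3. Of 3165 genes tested, edgeR called 0 at an adjusted p below 0.05, which is 0% of them. At an unadjusted p below 0.05 there were 126 genes (3.98%), 38 higher and 88 lower in CLL. DESeq2 called 7: H2-Ab1 and H2-Eb1 higher, and Col4a1, Col4a2, Apoe, Igf2 and Isg15 lower in CLL. Of 51 genes of T cell identity and function named for this comparison, 35 had enough counts, 0 passed at an adjusted p below 0.05, and their log2 folds ran from -3.37 (Isg15) to 1.84 (Zbtb16), 11 positive and 24 negative. An unadjusted p below 0.05 was found for 6, among them Zbtb16 with a positive fold, and Ifng, Ly6c2, Isg15 and Irf7 with a negative one. Leaving out SHAM replicate 1, edgeR called 2 genes over the whole table. In simulated sums of the same depth, the test called 71 of 98 genes changed 4-fold and 100 of 100 changed 16-fold. The simulation gave every gene the same spread between libraries (dispersion 0.136). In the real sums Il1r2, with a log2 fold of 4.86, had an edgeR adjusted p of 0.376. The simulated counts therefore do not carry over to genes that vary more, and 0 called genes does not show that large changes are absent.

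The gene groups below are described by counts and medians, beside the same over all genes tested, whose median log2 fold was -0.02. By CPM, the groups did not overlap for 19.9% of the tested genes, 9.45% higher and 10.5% lower in CLL.

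Interferon-stimulated genes had the lowest median fold of the 21 functional gene lists in CLL T barcodes. Of 44 listed, 43 were in the files and all had a UMI in T barcodes; 21 passed the filter on low counts. All 21 had a negative log2 fold, with a median of -1.65, and 14 had an unadjusted p below 0.05, beside 2.78% of all genes lower at that threshold. For 18 of the 21, every CLL library lay below every SHAM library. Among the 18 was Ly6c2, which is also in the macrophage and monocyte list used below. The list summed to 1105 to 1673 CPM in CLL and to 3091 to 6590 CPM in SHAM, so the groups do not overlap. Under 14 other settings of the fit the median ran from -1.97 to -1.47 and the count from 5, without CLL replicate 3, to 27, with no filter on low counts; it was 9 without SHAM replicate 3. With no filter, all 43 had a negative fold.

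Single interferon genes show the sizes. Isg15, a ubiquitin-like antiviral protein, had 37.7 and 26.9 CPM in CLL, against 118, 138 and 768 CPM in SHAM; 45 of the 95 UMIs in SHAM replicate 3 came from 1 barcode. Ly6a, a surface protein raised by interferon, had 26.9 and 46.2 CPM in CLL, against 179, 134 and 121 CPM in SHAM. Irf7, a factor of the interferon response, had 16.1 and 11.5 CPM in CLL, against 56.5, 42.6 and 97.0 CPM in SHAM. The log2 folds were -3.37 ± 0.97 for Isg15, -1.96 ± 0.41 for Ly6a and -2.16 ± 0.67 for Irf7 (SE), with adjusted p-values of 0.797, 0.574 and 0.889 in edgeR.

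In macrophage barcodes 40 of 43 members tested had a negative fold, with a median log2 fold of -1.46; Isg15, at 0.08, was among the others. In macrophage barcodes edgeR called 9 of 11903 genes (0.0756%), 0.0168% higher and 0.0588% lower in CLL, and Ly6a was among them with a log2 fold of -2.66. Of 42 members in the test of whether the change differs between T and macrophage barcodes, 1 passed (Isg15, below). Transcripts of other cells moved with the groups too. In T barcodes the macrophage and monocyte list, with Csf1r and Adgre1 at 0 by the rule and 15 of 17 genes read, summed to 748 and 647 CPM in CLL replicates 1 and 3, against 4146, 1236 and 1213 CPM in SHAM replicates 1, 2 and 3. Its part in the interferon values was not tested. Without SHAM replicate 1, 11 of 15 tested interferon genes were lower at an unadjusted p below 0.05, with a median of -1.65.

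Genes that load peptides on MHC class I, many of them raised by interferon, lay in the same direction. All 16 tested of 19 had a negative log2 fold, with a median of -0.70, and 2 had an unadjusted p below 0.05. H2-T22, a class I heavy chain, had 59.2 and 50.03 CPM in CLL, against 122, 147 and 251 CPM in SHAM, and Tap1, the peptide transporter, had 21.5 and 30.8 CPM in CLL, against 37.7, 81.9 and 170 CPM in SHAM. For both, each CLL library lay below each SHAM library. The whole list summed to 6833 and 6673 CPM in CLL, against 6195, 9502 and 14653 CPM in SHAM replicates 1, 2 and 3. On this sum the groups overlap, with SHAM replicate 1 below both CLL libraries. Macrophage barcodes moved alike, with a negative fold in 18 of 19 tested members and a median log2 fold of -0.63. In T barcodes the groups did not overlap for 7 of the 16 genes. The count with an unadjusted p below 0.05 moved from library to library: it was 11 without SHAM replicate 1, 1 without CLL replicate 1, SHAM replicate 2 or SHAM replicate 3, and 0 without CLL replicate 3.

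Genes of cell division lay the other way. All 16 tested of 34 had a positive log2 fold, with a median of 0.77, and 1 had an unadjusted p below 0.05. H2afz, a histone variant, had 1808 and 2609 CPM in CLL, against 989, 970 and 938 CPM in SHAM, with a log2 fold of 1.17 ± 0.27 (SE) and an adjusted p of 0.621 in edgeR. Stmn1, a regulator of microtubules, had 339 and 419 CPM in CLL, against 217, 200 and 8.09 CPM in SHAM. In 5 of the 16 the groups did not overlap. Mki67 had 59.2 and 88.5 CPM in CLL, against 70.7, 49.2 and 16.2 CPM in SHAM. Top2a had 118 and 84.7 CPM in CLL, against 151, 55.7 and 16.2 CPM in SHAM, so the groups overlap for both genes. With at least 3 rule genes asked for, 14 of 16 were positive and the median was 0.46. Without SHAM replicate 3, 17 of 18 were positive and the median was 0.49. The same list moved alike in macrophage barcodes, where 2 of 34 tested members had a negative fold and the median was 0.49.

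Most tested genes of the glycolysis and hypoxia list lay higher in CLL. Of 14 tested, 10 had a positive log2 fold, with a median of 0.39. The groups did not overlap for 7 higher in CLL, which were Gpi1, Tpi1, Gapdh, Pgk1, Pkm, Ldha and Mif. They did not overlap for 1 lower in CLL, Hk2. The list summed to 3460 and 3587 CPM in CLL, against 2940, 2868 and 2677 CPM in SHAM, with no overlap. Tpi1, an enzyme of glycolysis, had 129 and 142 CPM in CLL, against 66.0, 49.2 and 40.4 CPM in SHAM. Hk2, which feeds glucose into the pathway, had 140 and 88.5 CPM in CLL, against 287, 206 and 243 CPM in SHAM. The 2 enzymes thus lay in opposite directions, each with no overlap between the groups. The same list moved alike in macrophage barcodes, where 3 of 25 tested members had a negative fold and the median log2 fold was 0.72.

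**Figure D4:**
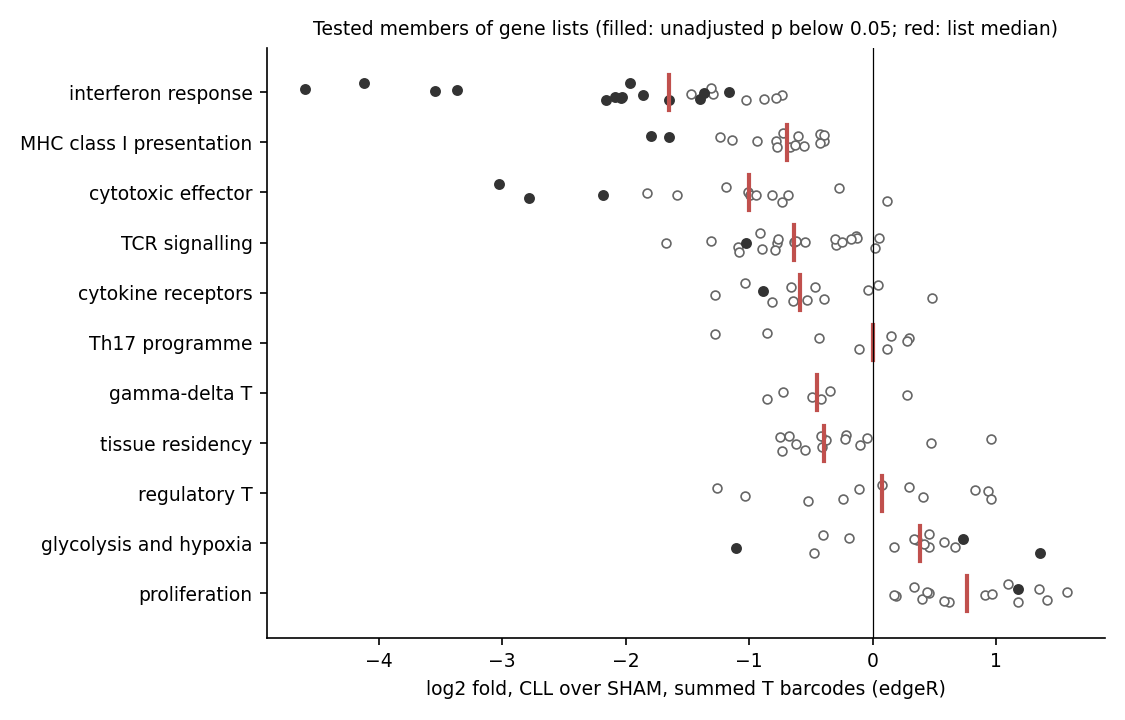
Log2 fold of CLL over SHAM (horizontal axis, edgeR on summed T barcodes) for each tested member of 11 gene lists; filled points have an unadjusted p below 0.05, open points do not, and the red bar is the list's median. All 21 interferon genes and all 16 class I genes lie left of 0, and all 16 division genes lie right of it, while 0 genes passed at an adjusted p below 0.05.

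Genes of T cell receptor signalling and of cytotoxic cells had medians below 0, which rested in part on single libraries. For receptor signalling, 19 of 21 tested genes had a negative fold, with a median of -0.64, and 1 had an unadjusted p below 0.05, Trbc1, a beta-chain constant segment. The negative folds were 11 of 20 with a median of -0.10 without CLL replicate 3, and 10 of 17 with a median of -0.19 without SHAM replicate 2. Trbc1 had 188 and 142 CPM in CLL, against 240, 387 and 372 CPM in SHAM. For cytotoxic effectors, 13 of 14 tested genes had a negative fold, with a median of -1.002, and 3 had an unadjusted p below 0.05 (Ccl4, Ifng and Serpinb9); without SHAM replicate 2, 8 of 13 were negative with a median of -0.48. Serpinb9, which protects cells from granzyme B, had 32.3 and 26.9 CPM in CLL, against 75.4, 125 and 210 CPM in SHAM, with no overlap.

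Other T cell programmes held no gene past an adjusted p of 0.05. The Th1 list had a median log2 fold of -0.66 with all 4 tested genes negative, the cytokine receptor list -0.59 over 12, the chemokine receptor list -0.54 over 6 and the naive and recirculating list -0.47 over 13. Without SHAM replicate 2, 2 of the 4 Th1 genes were positive and the Th1 median was -0.05. The Th17 list had a median log2 fold of 0.00 over 8 tested genes, 4 in each direction, and the gamma-delta list -0.45 over 6. The regulatory list had a median of 0.07 over 11, and the tissue residency list -0.40 over 14. Among innate-like T genes, Zbtb16, the factor PLZF, had 64.6 and 69.3 CPM in CLL, against 4.71, 29.5 and 16.2 CPM in SHAM, with a log2 fold of 1.84 ± 0.72 (SE), an adjusted p of 0.997 in edgeR and no overlap between the groups. Ly6c2, a surface protein of memory CD8 cells and monocytes, had 64.6 and 53.9 CPM in CLL, against 151, 292 and 89.0 CPM in SHAM.

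Of the genes that chose the barcodes, Cd3e had 226 and 177 CPM in CLL, against 316, 397 and 388 CPM in SHAM, and the groups do not overlap. Cd3d had 495 and 408 CPM in CLL, against 367, 508 and 526 CPM in SHAM, and Cd3g 603 and 670 CPM in CLL, against 504.1, 882 and 647 CPM in SHAM. Both of these overlap between the groups. No test is drawn from these genes.

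Genes of MHC class II presentation differed widely in level, and their UMIs came from few barcodes. H2-Ab1, a class II beta chain, had 995 and 1247 CPM in CLL, against 193, 22.9 and 48.5 CPM in SHAM. H2-Eb1, another beta chain, had 1318 and 1632 CPM in CLL, against 278, 39.3 and 259 CPM in SHAM. Cd74, the invariant chain, had 2389 and 3321 CPM in CLL, against 476, 52.4 and 1100 CPM in SHAM. The groups do not overlap for any of the 3. The log2 folds were 3.68 ± 0.69 for H2-Ab1, 2.99 ± 0.65 for H2-Eb1 and 2.42 ± 0.87 for Cd74 (SE), with adjusted p-values of 0.545, 0.574 and 0.997 in edgeR.

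Mouse T cells are not known to make class II, and here most T barcodes did not hold it. Of the UMIs of H2-Ab1, H2-Aa, H2-Eb1 and Cd74, 98.7% in CLL lay in 11 of 71 T barcodes with at least 20 such UMIs, and 65.6% in SHAM lay in 5 of 146. The median of the other T barcodes was 0 such UMIs in CLL and 1 in SHAM. The 11 CLL barcodes also had Ccr7 in 10, Tbc1d4 in 10, Fscn1 in 7 and Il1r2 in 7, against 3, 10, 5 and 4 of the other 60. Ccr7 and Fscn1 are genes of dendritic cells that migrate to lymph nodes, and Ccr7 is also a gene of naive T cells. Their median depth was 9009 UMIs, against 4143.5 UMIs in the other CLL T barcodes, and Scrublet, a doublet caller, marked 0 of them. The dendritic list, with Xcr1 at 0 and 12 of 13 genes read, summed to 5870 and 7847 CPM in CLL replicates 1 and 3, against 1479, 184 and 2911 CPM in SHAM replicates 1, 2 and 3. Without T barcodes of at least 2 dendritic markers, the log2 folds were 1.94 for H2-Ab1, 1.28 for H2-Aa, 1.32 for H2-Eb1 and 1.83 for Cd74. The edgeR adjusted p was 0.997 for each. That choice used none of these 4 genes, but it did use Ciita, a gene of the class II programme. Without barcodes of at least 20 class II UMIs, a choice that uses Cd74, its log2 fold was -0.59.

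**Figure D5:**
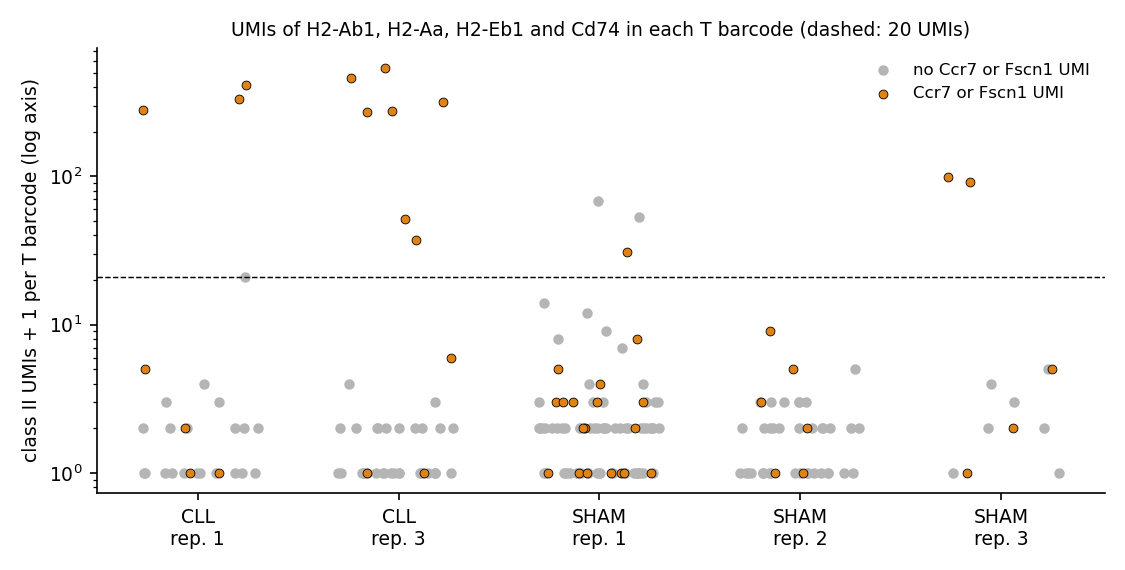
UMIs of H2-Ab1, H2-Aa, H2-Eb1 and Cd74 together in each T barcode, plus 1 (log vertical axis), by library, with the line of 20 UMIs dashed. Orange points have a UMI of Ccr7 or Fscn1; 11 T barcodes in CLL and 5 in SHAM lie at or above the line, while the largest value in SHAM replicate 2 is 8.

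Whether T barcodes changed otherwise than macrophage barcodes of the same muscles was tested with the library as a block. Macrophage barcodes were 11.9%, 3.03% and 12.3% of kept barcodes in CLL replicates 1, 2 and 3, and 13.9%, 11.02% and 2.62% in SHAM replicates 1, 2 and 3; the test used the 5 libraries with T barcodes. Of 10793 genes, 14 passed at an adjusted p below 0.05 in edgeR (0.13%). The change was the higher in T barcodes for 10, among them H2-Ab1, H2-Eb1, H2-Aa and Cd74, and the lower for 4, which were Ccl4, Cxcl10, Isg15 and Ccl3. Of the tested genes, 0.0927% passed higher and 0.0371% lower.

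Class II genes led this difference from both sides. H2-Ab1 in macrophage barcodes had 764 and 608 CPM in CLL, against 1580, 3182 and 2284 CPM in SHAM, so each CLL library lay below each SHAM library there and above each of them in T barcodes. The difference of the log2 folds was 5.70 ± 0.57 (SE), with an adjusted p of 8.85e-08. Without T barcodes of at least 20 class II UMIs, 16 genes passed. The values of H2-Ab1, H2-Eb1 and H2-Aa in that setting follow from the choice of barcodes by these genes and are no test of them. Il1r2, a decoy receptor for interleukin-1, had 145 and 77.0 CPM in T barcodes in CLL, against 4.71, 0 and 8.09 CPM in SHAM, and differed by 4.72 ± 0.93; without those barcodes the difference was 8.86 and did not pass (edgeR adjusted p = 0.547). Leaving out 1 library, the count of genes that passed ran from 13 to 56, with 45 without SHAM replicate 1 and 56 without SHAM replicate 2. Isg15 no longer passed without CLL replicate 1 or SHAM replicate 3, and neither did Ctla2a; Ccl3 did not pass without CLL replicate 3 or SHAM replicate 2.

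The chemokine genes went the other way. Ccl4, a chemokine that draws leukocytes, had 53.8 and 15.4 CPM in T barcodes in CLL, against 151, 361 and 154 CPM in SHAM. In macrophage barcodes Ccl4 had 2390 and 1904 CPM in CLL, against 674, 1519 and 573 CPM in SHAM. The groups do not overlap in either cell type, and the difference of the log2 folds was -3.95 ± 0.44 (SE), with an adjusted p of 6.18e-07 in edgeR. Without T barcodes of at least 20 class II UMIs the Ccl4 interaction was -3.65 and still passed.

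Cxcl10, a chemokine induced by interferon-gamma, had 10.8 and 50.03 CPM in T barcodes in CLL, against 231, 262 and 2644 CPM in SHAM. In macrophage barcodes it had 554 and 374 CPM in CLL, against 144, 201 and 135 CPM in SHAM, higher in each CLL library. Single barcodes carried much of the T value: 294 of 327 UMIs in SHAM replicate 3 and 55 of 80 in SHAM replicate 2. Ctla2a, a cysteine protease inhibitor of activated T cells, had 603 and 454 CPM in T barcodes in CLL, against 438, 469 and 129 CPM in SHAM, while in macrophage barcodes it had 16.0 and 27.8 CPM in CLL, against 112, 54.2 and 58.4 CPM in SHAM.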

How the data were processed

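Single-cell RNA was measured in 6 libraries, 1 per mouse, 3 CLL and 3 SHAM; muscle was digested with enzymes and loaded in droplets with a 3′ tag kit, per the labels' protocols. The deposited values are raw UMI counts per gene and barcode, which per the file headers come from Cell Ranger 6.1.2; the submitters' processing notes name mm10. The step that separated barcodes from empty droplets is not stated there.

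The T rule was applied to barcodes with 300 or more genes and no more than 15% mitochondrial UMIs. Doublets were left in; leaving out the highest-scoring barcodes of Scrublet (in scanpy 1.11.5), 0.8% per 1000 barcodes, was an alternative. NK barcodes had at least 2 of 9 NK genes and no CD3 or excluded gene. Macrophage barcodes had Csf1r and Adgre1 and no rule gene, Pdgfra or Csf3r. Fibroblast barcodes had Pdgfra and Col1a1 and no rule gene, Ptprc, Csf1r or Adgre1. Exact 95% intervals and limits from 3 counts cover counting error only.

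Counts were summed per library with at least 10 T barcodes and tested with edgeR 4.0.16 (quasi-likelihood, TMM, filterByExpr) in R 4.3.3, with Benjamini-Hochberg adjustment over all genes tested at 0.05. The comparison with macrophages added the library as a block. Shares were tested with exact two-sided permutation over libraries. Alternatives were DESeq2 1.42.0, TMMwsp, DESeq2 size factors, no filter on low counts, at least 3 rule genes, no excluded genes, other denominators, thinning to 1000 UMIs, the replicate block and each replicate left out. Leaving out barcodes with class II or dendritic transcripts, and the Il17a, Ifng and Trdc or Tcrg-C shares, were added after the data were seen. The fits were tested on data simulated with the same dispersion for every gene. There the 3165-gene fit of T barcodes called 5 unchanged genes. The interaction called 23 of 100 genes changed 4-fold and 94 of 100 changed 16-fold.

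Genes named are the 6 rule genes, a list of 51 genes, and genes past a threshold with at least 20 CPM on average, with members of 21 gene lists. The members, lists and genes were chosen with earlier results of these data known. Some items are not reported here.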

Additional observations from a re-analysis of the deposited data

Results flagged for a closer look

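For 14 genes the change between CLL and SHAM differed between T barcodes and macrophage barcodes of the same 5 libraries, by the edgeR interaction term at an adjusted p below 0.05. Values are the log2 fold in T barcodes minus that in macrophage barcodes.

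For class II presentation, the difference was 5.70 for H2-Ab1, 4.84 for H2-Eb1, 4.52 for H2-Aa, 4.38 for Cd74, 3.83 for H2-DMa and 6.44 for H2-DMb2. It was 3.89 for Napsa, an aspartic protease gene, 4.72 for Il1r2, 2.91 for Plac8 and 2.52 for Ctla2a. The difference was -5.46 for Cxcl10, -4.86 for Ccl3, -3.95 for Ccl4 and -2.94 for Isg15. Without T barcodes of at least 20 class II UMIs, it was 0.0855 for H2-Ab1, 0.951 for Cd74, 0.981 for H2-DMa 2.89 for Napsa, 8.86 for Il1r2 and 1.81 for Plac8, and none of these 6 passed; that choice of barcodes used H2-Ab1 and Cd74, whose values follow from it. For Ccl3 in T barcodes, 51 UMIs were in SHAM replicate 2, against 1 and 0 in CLL replicates 1 and 3, and 8 and 1 in SHAM replicates 1 and 3.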

How the results depend on the processing

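Few T barcodes and 2 CLL libraries with any limit every result. For genes called in T barcodes (0 in edgeR), DESeq2 gave 7, no filter on low counts 51, at least 3 rule genes 1 and the replicate block 22; leaving out 1 library gave 0 to 2. Only 2 same-numbered pairs hold T barcodes and nothing shows that the numbers pair the mice, so the block is given here alone. The interaction with macrophages (14 genes) gave 32 with no filter and 13 to 56 leaving out 1 library; without Scrublet doublets it gave 11, with Isg15, Ctla2a and H2-DMb2 lost. Differences of shares, in percentage points of CLL minus SHAM, turned sign: the CD8 share to -0.784 with at least 3 rule genes, and after thinning the Trdc share to -7.38, the Il17a share to -3.35 and the Trdc or Tcrg-C share to -9.45. Leaving out 1 library, the T share ran from -0.863 to 0.217, CD8 from -7.59 to 10.4, Trdc from -3.82 to 7.29, Il17a from -0.334 to 8.28 and Trdc or Tcrg-C from -0.940 to 7.70. The cause was not tested.

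Some log2 folds of single genes also turned sign; of those that turned, the interactions of H2-Eb1 and H2-Aa had passed the threshold. With the replicate block they were 0.0642 for Cd3d, 0.185 for Cd3g, 0.229 for Trdc, 0.551 for Gzma, 0.230 for Gzmb, 0.18 for Tcf7 and 0.313 for Icos. Cd3d was 0.0019 with no filter and 0.00656 without class II barcodes, where, in a choice that used these genes, Cd74 was -0.594 and the interactions of H2-Eb1 and H2-Aa were -1.19 and -1.53. Without Scrublet doublets, Trbc2 was -0.0334 and S1pr1 -0.0694. Leaving out 1 library, ranges were -0.236 to 0.183 for Cd3d, -0.319 to 0.157 for Cd3g, -0.164 to 0.218 for Trbc2, -2.97 to 0.240 for Cd8b1, -4.73 to 0.540 for Gzma, -1.12 to 0.3001 for Gzmb, -1.19 to 3.53 for Ccr7, -0.584 to 0.172 for Tcf7, -0.259 to 0.442 for S1pr1, -0.380 to 0.292 for Icos, -0.0871 to 1.16 for Areg, -0.220 to 1.11 for Gata3 and -0.355 to 0.0957 for Hif1a.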
